A study of Homo sapiens with 6 samples.

Results

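IMPDH1, IMPDH2, GMPS, HPRT1, TPMT, NT5C2, PNP, ADA, DCK and SAMHD1 encode enzymes that make, recycle or break down purine nucleotides and that process purine drugs used in leukemia. The 10 genes were chosen by name, and each matched 1 gene identifier among the 60640 identifiers of the expression tables. Expression was measured by RNA-seq of polyadenylated RNA in the established T-lineage leukemia line MOLT-4 (human T-ALL), grown in RPMI1640 with fetal bovine serum. The 6 libraries were 3 labelled wild type, which are the control of a CRISPR knockout, and 3 labelled IK-KO, in which CRISPR-Cas was directed at IKZF1, the gene of the zinc finger protein IKAROS. Values are FPKM, that is fragments scaled to transcript length in kilobases and to the number of mapped fragments. Cells and control were bought as edited material. The study reports PCR and western blot as its checks of the knockout, which lie outside these data. It blotted IKAROS protein in more than 1 clone, but the labels name no clone. The labels do not say whether the 3 libraries of a group came from separate cultures, so p-values measure only the spread between these libraries, which may be technical.

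Purine nucleotides are built de novo on a ribose phosphate up to inosine monophosphate (IMP), from which one branch leads to AMP and the other to GMP. Lymphoid cells depend on the guanine branch for proliferation, and T-lineage cells are sensitive to deoxynucleotides that accumulate when ADA or PNP is absent, as inherited deficiency of either enzyme shows. Thiopurines such as mercaptopurine and thioguanine are prodrugs. They enter through the salvage enzyme HPRT1, and mercaptopurine then passes with normal purines through IMPDH and GMPS. Thiopurines are inactivated by TPMT or dephosphorylated by NT5C2. DCK phosphorylates deoxynucleosides and analogs such as cytarabine, and SAMHD1 hydrolyzes the triphosphates. These roles are background and were not measured here.

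IKZF1 transcript was not reduced in the libraries labelled IK-KO. It was 134, 124 and 105 FPKM in wild type and 207, 260 and 207 FPKM in IK-KO. The log2 difference was 0.89 (SE 0.119), with an adjusted p of 0.00295 in limma. RNA level therefore did not check the IK-KO label, and every direction given here is that of the libraries labelled IK-KO relative to those labelled wild type. All 11 T-lineage markers examined had a mean of at least 1 FPKM over the 6 libraries, with CD2, CD7, CD5, CD4 and DNTT lower and CD1A, CD3D, CD3G and TRBC2 higher in IK-KO without overlap of the groups. Among the markers of other cells, 0 of 4 B-lineage, 0 of 4 myeloid, 0 of 2 erythroid and 0 of 4 stromal or epithelial genes reached that mean. Summed marker FPKM was 0.75 to 2.19 in wild type and 0.36 to 0.811 in IK-KO for the B lineage and at most 0.607 in any library for each of the other lists, and HBB, COL1A2 and EPCAM were listed at 0 throughout. The part of these marker differences in the results was not tested. Relative depth, read from the confidence bounds, ranged from 0.905 to 1.12 times the geometric mean of the 6 libraries. Mitochondrial transcripts held 12.96% to 14.4% of the FPKM sum.

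Levels of the 10 genes covered over 3 orders of magnitude, and their order was much the same in both groups. In wild type, ADA had 835 ± 22.2 FPKM (mean ± SD, n = 3), which was 5.13 times the level of the next gene, IMPDH2, at 163 ± 5.73. PNP followed at 83.2 ± 4.23, HPRT1 at 63.1 ± 5.34, DCK at 56.3 ± 4.13 and GMPS at 52.1 ± 2.10 FPKM. NT5C2 (38.5 ± 0.613) and IMPDH1 (38.1 ± 2.41) came next, then TPMT at 4.56 ± 0.0548 and SAMHD1 at 0.489 ± 0.248. Ranges of neighbors in this order overlapped for DCK with GMPS and for NT5C2 with IMPDH1, and were separate for the other neighbors. In the libraries labelled IK-KO, DCK (63.0 ± 3.70) and HPRT1 (61.8 ± 2.64) exchanged places with overlapping ranges, and IMPDH1 (15.1 ± 3.02) moved away from NT5C2 (37.3 ± 1.03), which was then 2.47 times higher. The FPKM of the 10 genes summed to between 1308 and 1373 in wild type and between 1286 and 1299 in IK-KO.

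**Figure D1:**
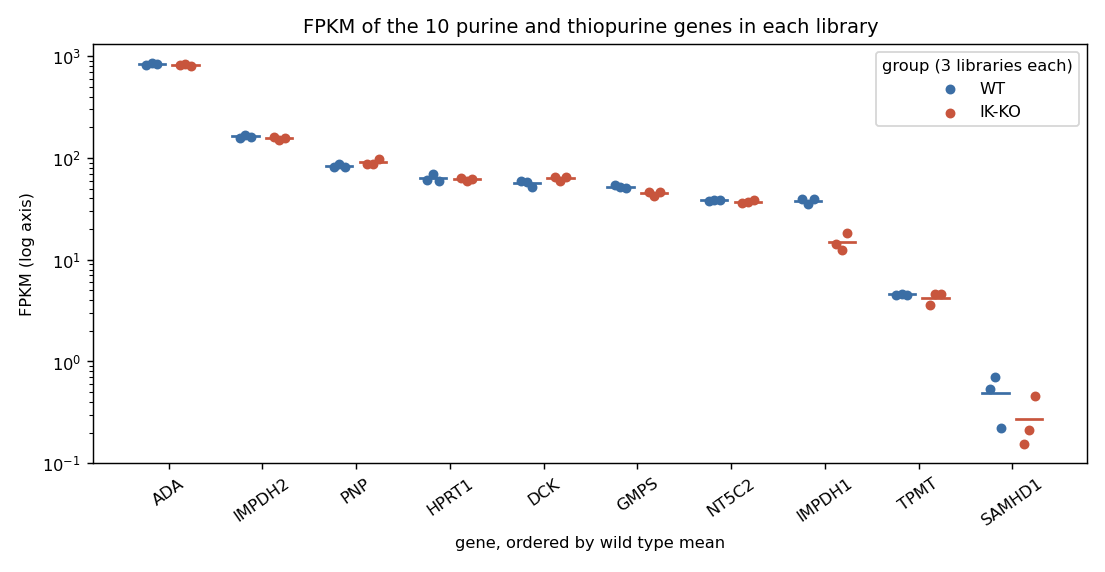
FPKM (log axis) of each of the 10 genes in the 3 wild type (blue) and 3 IK-KO (red) libraries, with points for libraries and a short line for the group mean. Genes are ordered by wild type mean from ADA at 835 FPKM to SAMHD1 at 0.489, and a wide gap between the groups is seen at IMPDH1 (35.3 to 39.6 against 12.5 to 18.4 FPKM).

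The comparison asked which of these genes differed between the libraries labelled IK-KO and wild type. IMPDH1 was lower in IK-KO, with wild type 2.53 times higher on the ratio of mean FPKM, and no other gene of the 10 passed the test. Changes were tested with limma on log2(FPKM + 1), on which a change is understated for genes of low FPKM, and a gene was called at a Benjamini-Hochberg adjusted p under 0.05 over all 12652 genes with a mean of at least 1 FPKM. Of the 10 genes 9 were tested and 1 was called, beside 19.9% of all tested genes called in either direction, 9.75% called lower and 10.1% called higher. SAMHD1 was below the minimum and was not tested. Among the 9 tested genes 7 had a lower and 2 a higher mean in IK-KO. The median of their log2 changes was -0.04, beside 0.017 over all tested genes. The groups did not overlap for 2 of the 9, IMPDH1 and GMPS, beside 39% of all tested genes. In bulk RNA, fewer cells that express a gene and less RNA per cell cannot be told apart.

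**Figure D2:**
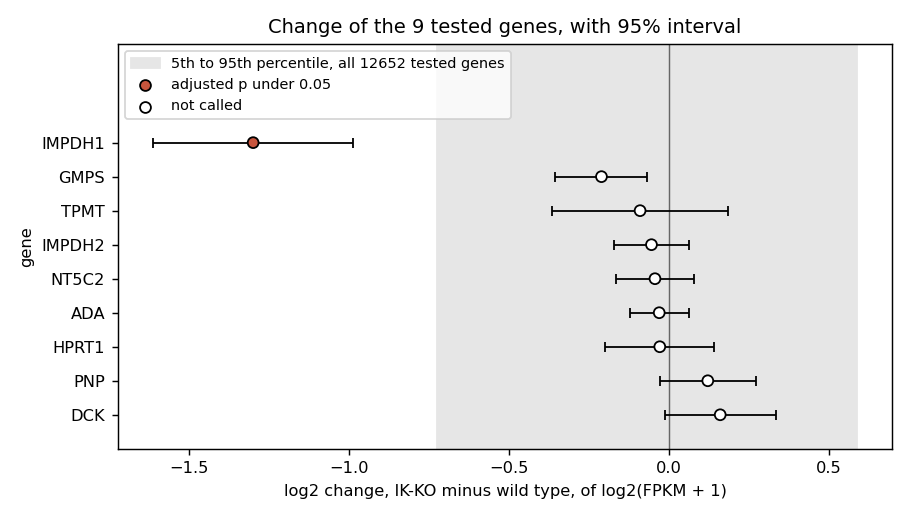
Log2 change, IK-KO minus wild type, of log2(FPKM + 1) for the 9 tested genes, with bars for the 95% interval of the limma fit (3 libraries per group) and a filled point for an adjusted p under 0.05. The shaded band spans the 5th to 95th percentile of all 12652 tested genes (-0.72 to 0.59), and IMPDH1 at -1.30 lies outside it while the other 8 genes lie inside.

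IMPDH1 and IMPDH2 encode the isozymes of IMP dehydrogenase, which converts IMP to xanthosine monophosphate, is the rate-limiting step toward GMP and is the target of mycophenolic acid. IMPDH1 (GRCh38 chr7:128392277-128410252) had 39.5, 35.3 and 39.6 FPKM in wild type, against 14.3, 12.5 and 18.4 FPKM in IK-KO. Every wild type library lay above every IK-KO library, and the deposited confidence bounds were separate as well, the lowest wild type bound being 31.7 and the highest IK-KO bound 21.4 FPKM. The log2 change was -1.30 (SE 0.133, 95% interval -1.61 to -0.99, limma adjusted p = 0.000882). Only 203 of the 12652 tested genes (1.60%) had a more negative change. IMPDH1 was called under all 14 alternative settings, with log2 changes between -1.44 and -1.18. The 25 tested genes on either side of IMPDH1 on chromosome 7 had a median log2 change of 0.03, with 26 higher and 8 called. Their starts lay between -15.6 and 1.04 Mb from that of IMPDH1. The tables list 7 IMPDH1 pseudogenes, of which 3 were at 0 and none exceeded 0.356 FPKM in any library.

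IMPDH2 (chr3:49024325-49029408) is an isozyme that is induced in proliferating lymphocytes. It had 158, 169 and 161 FPKM in wild type and 161, 150 and 159 FPKM in IK-KO, so that the groups overlapped. Its log2 change was -0.05 (SE 0.049, limma adjusted p = 0.492), and the 95% interval allowed a fold of FPKM + 1 from 0.889 to 1.04. The change was between -0.0945 with quantile normalization and -0.0247 without IK-KO replicate 2, and -0.0264 without wild type replicate 2. The ratio of IMPDH2 to IMPDH1 within a library, which does not depend on scaling between libraries, was 4.003, 4.78 and 4.07 in wild type and 11.3, 12.03 and 8.62 in IK-KO. The ratio was thus higher in all 3 IK-KO libraries, with a log2 difference of 1.30 between groups. The exact two-sided permutation test gave p = 0.1, the smallest that 3 against 3 libraries allow, and 0.2 after adjustment over the 6 within-library values tested in this family. IMPDH1 and IMPDH2 together summed to 201 ± 3.51 FPKM in wild type and 172 ± 7.78 FPKM in IK-KO (n = 3 each), a log2 difference of -0.23 with no overlap (exact permutation p = 0.1, adjusted 0.2).

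**Figure D3:**
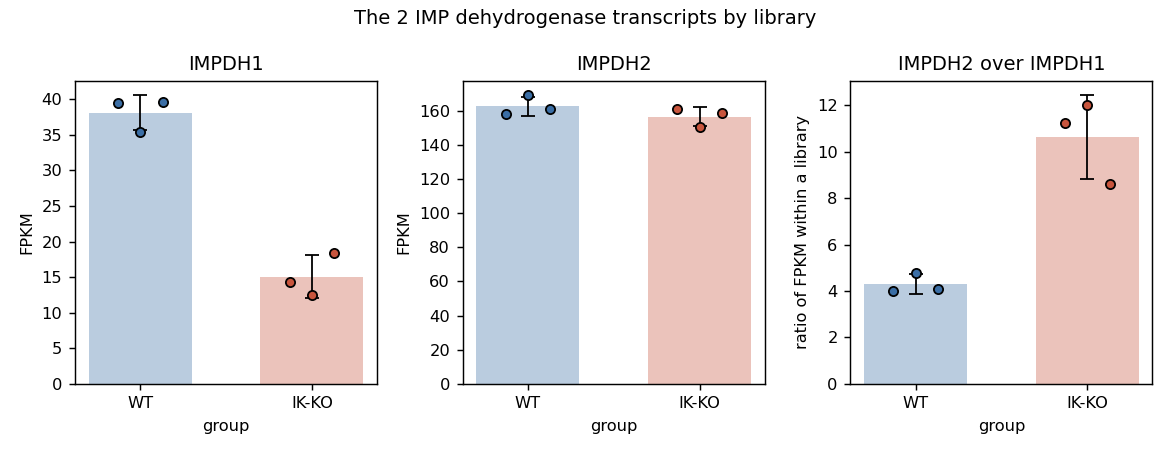
FPKM of IMPDH1 and of IMPDH2, and the ratio of IMPDH2 to IMPDH1 within a library, in wild type (WT) and IK-KO, with bars for group means, error bars for the SD and points for the 3 libraries of each group. IMPDH1 falls from 38.1 to 15.1 FPKM, the groups overlap for IMPDH2 (163 and 157 FPKM), and the ratio goes from 4.29 ± 0.432 to 10.6 ± 1.79.

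Promoter sequence was read from RefSeq (GRCh38.p14, 250 bases before to 50 after the annotated start), which holds an entry for 9 of the 10 genes, all but IMPDH2. IKAROS is known to recognize the core GGGAA, so that core and its complement TTCCC were searched on the printed strand, and matches are in capitals. These letters contain GGAA, which is also the core of ETS family sites. The promoter of IMPDH1, the called gene, is shown with that of HPRT1, which was not called and held more matches. HPRT1 was chosen for display on these values, and any part of the matches in the changes was not tested.
IMPDH1, chr7:128409933-128410232, minus strand: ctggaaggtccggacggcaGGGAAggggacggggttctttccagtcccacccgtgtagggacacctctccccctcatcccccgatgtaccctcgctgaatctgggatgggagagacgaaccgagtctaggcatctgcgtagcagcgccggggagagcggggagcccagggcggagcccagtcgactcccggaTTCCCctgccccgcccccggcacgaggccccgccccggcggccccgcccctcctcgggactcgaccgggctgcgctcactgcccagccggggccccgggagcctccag
HPRT1, chrX:134459915-134460214, plus strand: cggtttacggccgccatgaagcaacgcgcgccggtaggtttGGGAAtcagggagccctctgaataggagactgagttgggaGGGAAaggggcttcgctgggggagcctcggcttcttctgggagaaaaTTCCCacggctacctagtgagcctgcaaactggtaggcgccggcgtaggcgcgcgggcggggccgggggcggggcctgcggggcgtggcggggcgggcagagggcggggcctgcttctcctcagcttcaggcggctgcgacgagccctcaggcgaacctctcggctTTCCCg
IMPDH1 held 2 matches, 1 in each orientation, and HPRT1 held 4, 2 in each orientation. Among the other genes TPMT held 4 in both of its annotated promoters, ADA 3, DCK 2 and PNP 2. The windows of TPMT overlap, and the same 4 matches were counted in each. GMPS, the 3 annotated promoters of NT5C2, and SAMHD1 held 0. Of all 35116 RefSeq promoters of this length, 65.0% held at least 1 match, 29.8% at least 2 and 2.98% at least 4. A match describes letters in this window and is not a measured site.

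GMPS (chr3:155870650-155944020) encodes GMP synthetase, the step after IMPDH, which also aminates the intermediate of mercaptopurine. GMPS had 54.4, 51.7 and 50.3 FPKM in wild type and 46.4, 42.3 and 46.1 FPKM in the 3 IK-KO libraries. The groups did not overlap and the IK-KO mean was 13.8% below that of wild type. The log2 change was -0.21 (SE 0.061, limma adjusted p = 0.0515), which did not pass the threshold. GMPS passed it under 3 alternatives, with adjusted p of 0.0474 when genes needed a mean of 5 FPKM, 0.0283 with median-of-ratios scaling and 0.0254 with quantile normalization, and the log2 change was between -0.24 and -0.17 under all 14. GMPS did not pass under the other alternatives, where the limma adjusted p reached 0.143 without wild type replicate 1. The decision for GMPS thus depended on the scaling and the filter.

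HPRT1, TPMT and NT5C2 act on thiopurines directly, and none of them passed the test. HPRT1 (chrX:134460165-134520513) joins hypoxanthine, guanine or a thiopurine base to ribose phosphate, the activating step. HPRT1 had 61.1, 69.2 and 59.1 FPKM in wild type and 64.1, 58.9 and 62.3 FPKM in IK-KO, with overlapping groups. Its log2 change was -0.03 (SE 0.072, limma adjusted p = 0.830), with a 95% interval on the fold of 0.872 to 1.10. The sign turned without wild type replicate 2 (0.0385) and without IK-KO replicate 2 (0.00488).

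TPMT (chr6:18128311-18155077), the methyltransferase whose inherited variants set thiopurine tolerance, had 4.53, 4.63 and 4.54 FPKM in wild type and 3.58, 4.62 and 4.55 FPKM in IK-KO. IK-KO replicate 1 was low, and the other 2 IK-KO libraries lay inside the range of wild type. The log2 change was -0.09 (SE 0.117, limma adjusted p = 0.644) and 0.006 without that library. The tested genes around TPMT on chromosome 6 had a positive median change of 0.24, with 34 of 50 higher and 23 called. With the shift of those neighbors removed in each library, the TPMT change was -0.32 (limma adjusted p = 0.147), still not called. The part of this regional shift in the TPMT value was not tested further.

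**Figure D4:**
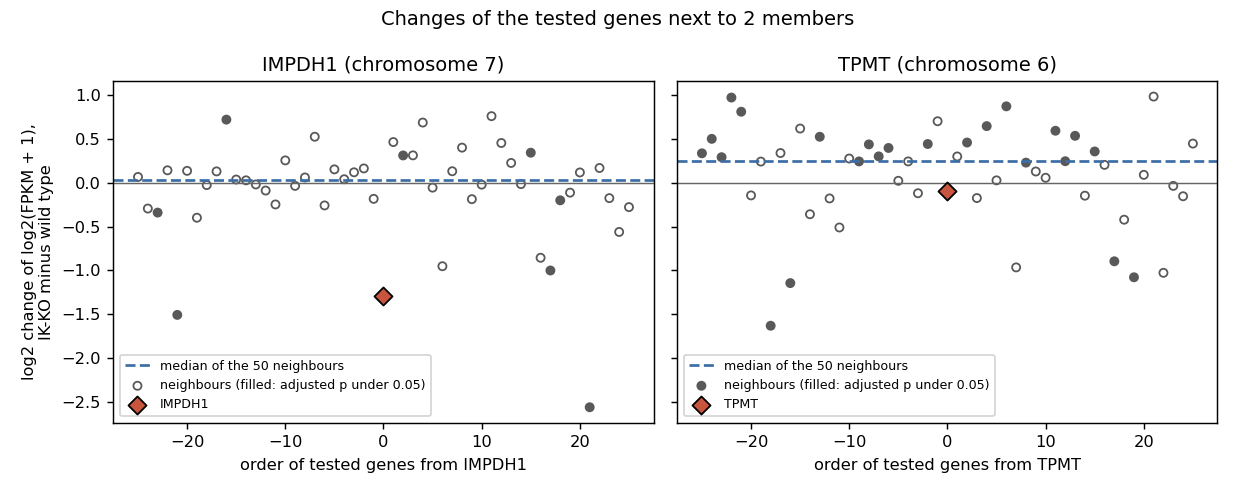
Log2 change, IK-KO minus wild type, of log2(FPKM + 1) for the 25 tested genes on either side of IMPDH1 (left) and TPMT (right). Genes stand in their order along the chromosome, with the gene itself at 0 as a diamond. Filled circles mark an adjusted p under 0.05 and the dashed line marks the median of the neighbors, which is 0.03 around IMPDH1 and 0.24 around TPMT, and 2 neighbors lie below IMPDH1 at -1.30.

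NT5C2 (chr10:103088017-103193306) encodes the cytosolic nucleotidase that removes the phosphate of IMP, GMP and thiopurine monophosphates, and activating mutations of it occur in relapsed ALL. NT5C2 had 37.8, 38.6 and 39.0 FPKM in wild type and 36.3, 37.2 and 38.4 FPKM in IK-KO, with overlapping groups. Its log2 change was -0.04 (SE 0.052, limma adjusted p = 0.613), with a 95% interval on the fold of 0.892 to 1.06. It was -0.0248 without IK-KO replicate 1. The deposited bounds of NT5C2 were wider than the spread between libraries, for example 22.7 to 55.3 FPKM in wild type replicate 3. The ratio of HPRT1 to TPMT, activation against methylation, differed between groups by 0.08 on the log2 scale (exact permutation p = 0.8). HPRT1 to NT5C2 differed by 0.02 (exact permutation p = 0.9), and both p were 0.9 after adjustment over the 6 values. Leaving out IK-KO replicate 1 turned the direction of both ratios, to -0.06 and -0.03, and leaving out wild type replicate 3 turned that of HPRT1 to NT5C2, to -0.04.

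ADA deaminates adenosine and deoxyadenosine, and PNP then cleaves inosine and guanosine and their deoxy forms to the free bases. ADA (chr20:44619522-44652233) had 812, 857 and 835 FPKM in wild type and 811, 833 and 807 FPKM in IK-KO. It was the most abundant transcript of the 10 in every library, and the groups overlapped. Its log2 change was -0.03 (SE 0.039, limma adjusted p = 0.647), with a 95% interval on the fold of 0.918 to 1.04. Quantile normalization gave -0.11 (adjusted p = 0.0353), which passes the threshold, and removing the neighbors' shift turned the sign, to 0.03. ADA overlaps PKIG, which had 18.04 FPKM in wild type and 8.54 FPKM in IK-KO on average, and fragments of overlapping genes may be divided between them.

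PNP (chr14:20468954-20477094) had 80.7, 88.0 and 80.8 FPKM in wild type and 87.3, 87.5 and 97.0 FPKM in IK-KO. The groups overlapped, as wild type replicate 2 lay above IK-KO replicates 1 and 2. The log2 change was 0.12 (SE 0.064, limma adjusted p = 0.232), with a 95% interval on the fold of 0.981 to 1.21. It was 0.0722 without IK-KO replicate 3, 0.0713 with the neighbors' shift removed and 0.0704 with quantile normalization, and was called in none of these. The ratio of PNP to ADA was 0.0993, 0.103 and 0.0968 in wild type and 0.108, 0.105 and 0.120 in IK-KO. These ratios did not overlap, with a log2 difference of 0.15 (exact permutation p = 0.1, adjusted 0.2). The difference was 0.0942 without IK-KO replicate 3.

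DCK and SAMHD1 act in opposite directions on nucleoside analogs, the former building and the latter hydrolyzing the phosphorylated drug. DCK (chr4:70992538-71030914) had 58.9, 58.5 and 51.5 FPKM in wild type and 64.7, 58.8 and 65.6 FPKM in the 3 IK-KO libraries. The lowest IK-KO library and the highest wild type library were nearly equal. The log2 change was 0.16 (SE 0.073, limma adjusted p = 0.178), with a 95% interval on the fold of 0.991 to 1.26. It was 0.0992 without wild type replicate 3 and 0.0918 with the neighbors' shift removed, not called in either. DCK overlaps MOB1B, which had 19.4 FPKM in wild type and 23.7 FPKM in IK-KO on average.

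SAMHD1 (chr20:36889773-36951901) had 0.538, 0.710 and 0.221 FPKM in wild type and 0.154, 0.211 and 0.459 FPKM in IK-KO. The lower confidence bound was 0 in all 6 libraries, the upper bound was at most 1.55 FPKM, and the groups overlapped. A difference in SAMHD1 was therefore not resolved at these values near the floor, and no fold is given. What size of change would have been seen was not computed. The ratio of DCK to SAMHD1, counted among the 6 values above, ranged from 82.4 to 234 in wild type and from 143 to 420 in IK-KO. The groups overlapped, and since the ratio rests on the SAMHD1 values no difference is read from it.

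The other genes of the pathway were followed in 4 lists, whose counts and medians stand beside 19.9% called and a median log2 change of 0.017 over all tested genes. In these short lists 14.3% of the tested de novo synthesis genes, 22.2% of the interconversion genes, 31.2% of the deoxynucleotide genes and 42.9% of the transporters were called, with rises and falls in all but the first. De novo purine synthesis leads to IMP, and 1 of its 7 tested genes was called, in the lower direction, with a list median log2 change of 0.016. The called gene was PRPS1, which makes the activated ribose phosphate that both the de novo and salvage routes use. PRPS1 had 44.5, 44.6 and 47.4 FPKM in wild type and 40.8, 37.1 and 37.0 FPKM in IK-KO (log2 change -0.24, limma adjusted p = 0.0329), and the call was lost in 8 of 14 alternatives. PAICS, which catalyzes a pair of consecutive steps, was marked as not estimated in IK-KO replicate 2 and was not tested, with listed values of 199 to 225 FPKM in wild type and 229 to 239 FPKM in IK-KO. No other tested gene of the list was called.

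Interconversion, salvage and breakdown enzymes numbered 26, of which 18 were tested and 4 called, 1 higher and 3 lower, with a list median of -0.08. AK4, a mitochondrial adenylate kinase, had 3.595, 1.73 and 3.56 FPKM in wild type and 0.598, 0.524 and 0.617 FPKM in IK-KO. The groups were separate and the log2 change was -1.29 (SE 0.231, limma adjusted p = 0.00889), called in every alternative in which AK4 was tested. Every IK-KO value was below 1 FPKM, so AK4 passed the minimum mean only through the wild type libraries. The size of its change rests on values near the floor, and was -2.10 with a pseudocount of 0.1. APRT, the adenine salvage enzyme, went from 131 ± 14.2 to 97.8 ± 11.5 FPKM (log2 change -0.42, limma adjusted p = 0.0355). GUK1, the kinase that turns GMP and thioguanine monophosphate into the diphosphate, went from 264 ± 12.3 to 223 ± 12.04 FPKM (log2 change -0.24, limma adjusted p = 0.0255). Each of these calls was lost in 6 of 14 alternatives.

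The called gene that was higher in IK-KO in the same list was AK6. This nuclear adenylate kinase had 41.8, 41.1 and 41.5 FPKM in wild type and 65.7, 51.9 and 66.6 FPKM in IK-KO (log2 change 0.55, SE 0.097, limma adjusted p = 0.00866). AK6 lies within the same locus as TAF9, whose mean was 68.8 FPKM in wild type and 71.4 FPKM in IK-KO. AK6 also overlaps RAD17, which had 20.4 and 23.6 FPKM and was not called (limma adjusted p = 0.112). How fragments were divided among these genes was not tested. XDH, GDA and AMPD1, which act in breakdown and deamination, were listed at 0 in all 6 libraries.

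**Figure D5:**
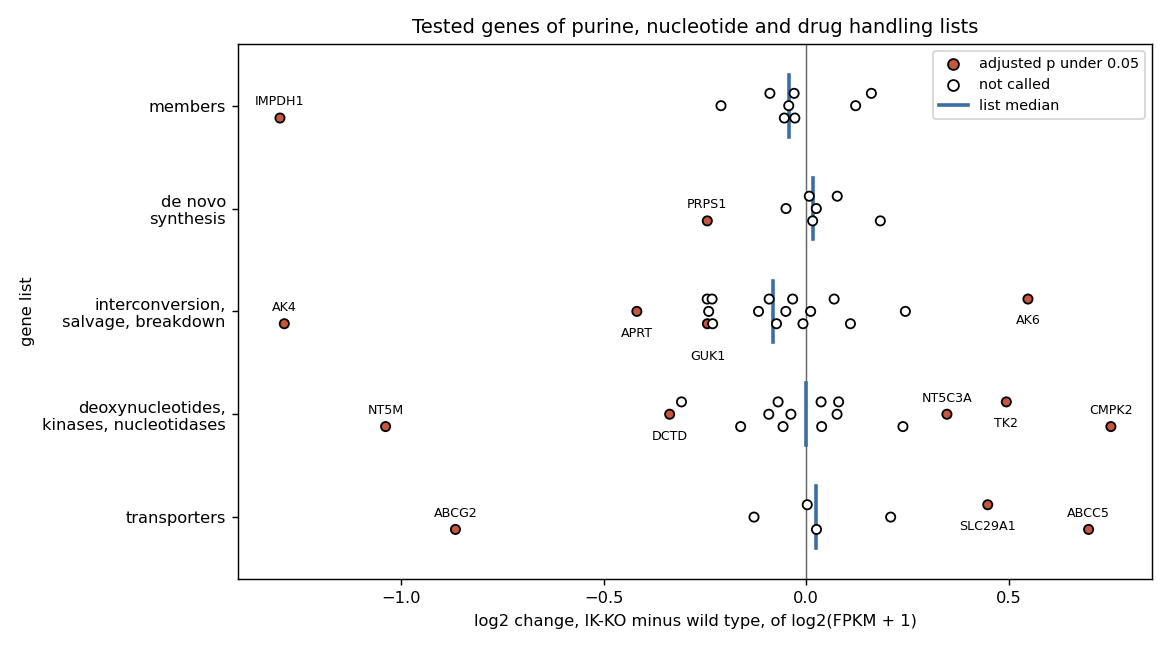
Log2 change, IK-KO minus wild type, of log2(FPKM + 1) for each tested gene of the 10 genes and of the 4 pathway lists, one point per gene with vertical spread only for legibility. Filled points have an adjusted p under 0.05 and are named, and a vertical bar marks the list median, which lies between -0.08 and 0.03 in every list.

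Deoxynucleotide supply, nucleoside kinases and nucleotidases numbered 20, of which 16 were tested and 5 called, 3 higher and 2 lower, with a list median of -0.00074. CMPK2, a mitochondrial nucleoside monophosphate kinase, had 31.9, 34.0 and 29.9 FPKM in wild type and 55.3, 51.8 and 56.2 FPKM in IK-KO (log2 change 0.75, SE 0.067, limma adjusted p = 0.000531). RSAD2, a gene that overlaps CMPK2, had a mean of 9.70 and 10.4 FPKM (log2 change 0.09, limma adjusted p = 0.61). TK2, which phosphorylates thymidine and deoxycytidine in mitochondria, went from 3.45 ± 0.0931 to 5.28 ± 0.429 FPKM (log2 change 0.49, limma adjusted p = 0.0161). NT5C3A, a nucleotidase of pyrimidine monophosphates, went from 12.2 ± 0.251 to 15.8 ± 1.22 FPKM (log2 change 0.35, limma adjusted p = 0.0207).

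Lower in IK-KO in that list were NT5M and DCTD. NT5M, the mitochondrial deoxynucleotidase, had 5.07, 4.59 and 5.88 FPKM in wild type and 1.94, 2.198 and 1.87 FPKM in IK-KO (log2 change -1.04, SE 0.127, limma adjusted p = 0.00193). DCTD, which deaminates deoxycytidine monophosphate, went from 60.7 ± 7.15 to 47.7 ± 2.53 FPKM (log2 change -0.34, limma adjusted p = 0.0405). Of these 5 calls CMPK2 and NT5M held in every alternative in which they were tested, while those of TK2, NT5C3A and DCTD were lost in 4, 5 and 7 alternatives. RRM1 and RRM2, the subunits of ribonucleotide reductase, had log2 changes of -0.06 and 0.08 and were not called (limma adjusted p = 0.763 and 0.422).

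Nucleoside and drug transporters numbered 12, of which 7 were tested and 3 called, 2 higher and 1 lower, with a list median of 0.03. SLC29A1, the equilibrative transporter through which nucleosides and analogs such as cytarabine enter cells, had 62.1, 62.2 and 59.95 FPKM in wild type and 86.8, 81.9 and 83.7 FPKM in IK-KO. Every IK-KO library lay above every wild type library. The log2 change was 0.45 (SE 0.048, limma adjusted p = 0.00113). SLC29A1 also lies on chromosome 6, where the 25 tested genes on either side of it had a median change of 0.23. With that shift removed its change was 0.22 (limma adjusted p = 0.0241). ABCC5, an exporter of cyclic nucleotides and of nucleotide analogs, had 11.4, 11.6 and 11.6 FPKM in wild type and 19.7, 19.2 and 19.0 FPKM in IK-KO (log2 change 0.70, SE 0.062, limma adjusted p = 0.000554), called in all 14 alternatives. ABCG2, a broad drug exporter, had 2.71, 3.43 and 2.24 FPKM in wild type and 0.955, 1.63 and 0.713 FPKM in IK-KO (log2 change -0.87, SE 0.211, limma adjusted p = 0.0281), a call lost in 5 of the 13 alternatives in which it was tested. ABCC4, which exports thiopurine nucleotides, had a log2 change of 0.0023 (limma adjusted p = 0.994), and ABCB1 was listed at 0 in all 6 libraries.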

How the data were processed

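RNA-seq of polyadenylated RNA was analysed in 6 MOLT-4 libraries, 3 per group, with groups taken from the labels. The authors deposited gene-level FPKM with confidence bounds and an estimation status, already scaled for transcript length and depth, in the layout Cufflinks writes. The submitters' processing notes name STAR 2.6.1c, Cufflinks 2.2.1, HOMER 4.10 and hg38 with no role or order. The annotation and strand setting are not given in the sources used here, so overlapping genes are uncertain. All 49727 single-row identifiers whose version is in GENCODE 44 lie at its GRCh38 position, and coordinates are counted from 1. No counts are given, so no count model was used, and depth is known only relatively, from the bounds.

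Where an identifier had several rows (110 identifiers), their FPKM values were added, and 29 identifiers not estimated in a library were left out. The limma package (3.58.1, R 4.3.3) was applied to log2(FPKM + 1) using lmFit and trended eBayes. Two-sided p-values were adjusted after Benjamini and Hochberg over 12652 genes with a mean of at least 1 FPKM. The fit was also run on simulated data with normal noise, which checks the code and not the rate of false calls in these FPKM values. The study states a Welch test with a fold limit for its mouse counts. Ratios within a library were compared with exact permutation tests in scipy 1.17.1. Alternatives were a pseudocount of 0.1, no filter, a mean of at least 5 FPKM, median-of-ratios scaling, quantile normalization, a replicate block, keeping rows marked as not estimated, subtracting the median deviation of the 25 nearest tested genes on either side, and leaving out each library. A gene of a pathway list is not reported here and was left out of its counts. Members and lists were chosen with earlier results of these data known. Named genes were the 10 genes, IKZF1, and up to 3 largest rises and 3 largest falls among called genes of each list. Others (PAICS, XDH, GDA, AMPD1, RRM1, RRM2, ABCC4, ABCB1, the markers and overlapping genes) were chosen after their values were seen or to describe samples.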

Additional observations from a re-analysis of the deposited data

How the results depend on the processing

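IMPDH1 was called under all 14 alternatives. Of the 10 genes, 2 were called with a mean of at least 5 FPKM and 2 with median-of-ratios scaling (IMPDH1 and GMPS), and 3 with quantile normalization (ADA in addition). With 1 library left out the number of the 10 genes called stayed 1. The ADA log2 change was 0.0305 with the neighbors' shift removed and -0.0492 to -0.0109 with 1 library left out. Leaving out 1 library gave log2 changes of -0.0733 to 0.0385 for HPRT1 and -0.142 to 0.00621 for TPMT, and log2 differences of -0.0635 to 0.183 for HPRT1 over TPMT and -0.0403 to 0.0814 for HPRT1 over NT5C2. Over all alternatives the log2 change was -0.0945 to -0.0247 for IMPDH2, -0.0633 to -0.0248 for NT5C2, 0.0704 to 0.163 for PNP and 0.0918 to 0.209 for DCK. None of the values in the preceding sentences, from the ADA value on, was called.

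Counts in the pathway lists were less stable, apart from nucleoside and drug transporters, which had 2 or 3 called genes under every alternative. De novo synthesis had 0 called genes without a filter and 0 with the neighbors' shift removed, and between 0 and 1 with 1 library left out. Interconversion, salvage and breakdown had 2 without a filter and 2 to 4 with 1 library left out. Deoxynucleotide supply had 3 with a mean of at least 5 FPKM, where fewer genes are tested, and 2 to 5 with 1 library left out. The cause of the other losses was not tested.

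Deviations of same-numbered libraries correlated at 0.067, 0.025 and 0.0055, so the numbers were not taken to pair the libraries. With a replicate block 1805 genes were called in place of 2515, and 1 of the 10 genes (IMPDH1) stayed called. The lists then had 0 (de novo synthesis), 2 (interconversion, salvage and breakdown), 3 (deoxynucleotide supply) and 3 (transporters) called genes. With 3 libraries per group, ratios could not pass a threshold of 0.05 in the exact test. A difference in SAMHD1 was not resolved, since its values were near the floor.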
